A study of Mus musculus with 18 samples.

Results

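The 6 genes of the circadian clock described here were chosen by name: the activators Arntl, Clock and Npas2, the REV-ERB repressor genes Nr1d1 and Nr1d2, and the ROR receptor gene Rora. They were found by their symbols among the 20295 genes of the deposited count table, and all 6 passed the filter on low counts that left 12156 genes for testing. The lowest count of any of them in any library was 46, for Npas2, and the highest was 7990, for Clock.

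The data are RNA-seq counts of 18 samples of BAT-LgT cells, wild-type brown preadipocytes of the mouse that carry the SV40 large T antigen and were differentiated in culture into brown adipocytes. All groups went through the same differentiation with dexamethasone, IBMX, insulin and thyroid hormone, and all come from this 1 line. On day 7 the cells were given an ATGL inhibitor together with an HSL inhibitor, which block triglyceride breakdown, for 1 h, or none. They then received DMSO (Vehicle), the β-adrenergic agonist isoproterenol at 100 nM (ISO), or SR-3420, a ligand of the ATGL co-activator ABHD5 that starts lipolysis without the receptor, for 3 h. The labels give 10 µM for SR-3420, whereas the text of the study gives another dose, and which applies was not settled. This gave 6 groups of 3 samples, called Vehicle, ISO and SR-3420 without inhibitors, and Lipase Inh. + SR-3420, Lipase Inh. + ISO and Lipase Inh. + Vehicle with them. The study describes independent experiments, while the labels number the replicates without saying what separates them, so p-values measure the spread between these samples. The cells were not synchronised and were taken at a single time after stimulation, so these are levels and not rhythms.

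In the clock of mammalian cells, the protein of Arntl (BMAL1) pairs with that of Clock, or of its paralogue Npas2, and binds E-boxes to switch on the Per, Cry and REV-ERB genes. PER and CRY proteins then block the pair. REV-ERBα (Nr1d1) and REV-ERBβ (Nr1d2) are nuclear receptors that repress Arntl through ROR elements, where RORα (Rora) competes as an activator. In brown fat, REV-ERBα is also known as a repressor of the thermogenic gene Ucp1.

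The promoter windows of RefSeq for GRCm38.p6, from 250 bases before to 50 bases after each start, hold all 6 genes, in 9 windows because Arntl has 2 and Clock 3. The count table uses mm9, so these positions are not those of the table. The motifs searched on both strands were the E-box CACGTG, the ROR element cores TAGGTCA and TGGGTCA, the cAMP response element TGACGTCA and its short form TGACG, and the D-box as TTATGTAA or TTATGCAA. The short form is contained in the whole element. The single match found was the core TAGGTCA, 31 to 37 bases after the second Arntl start, shown here because it is the element on which REV-ERB and ROR proteins act. Its 30 bases at chr7:113207530-113207559 on the plus strand are given with the core in capitals.
Arntl ROR core: aaggcagaaagTAGGTCAgggacggaggtg
Of all 32851 windows, 2.61% hold TAGGTCA, 3.98% TGGGTCA, 7.15% the E-box, 1.79% the whole cAMP response element, 20.8% its short form, and 0.938% and 0.743% the D-box forms. That the other windows hold no match says only that these letters are not within them.

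The sequences before the first start of Arntl and of both REV-ERB genes are shown because these are the genes whose levels parted furthest under ISO with lipase inhibitors. Capitals mark CCAAT on either strand (ATTGG as printed), the letters read by the factor NF-Y, a motif that was added after the sequences had been seen. The Arntl run is chr7:113207215-113207464 on the plus strand, the Nr1d1 run chr11:98775378-98775627 and the Nr1d2 run chr14:18239107-18239356, both on the minus strand, all printed 5′ to 3′ along the gene.
Arntl: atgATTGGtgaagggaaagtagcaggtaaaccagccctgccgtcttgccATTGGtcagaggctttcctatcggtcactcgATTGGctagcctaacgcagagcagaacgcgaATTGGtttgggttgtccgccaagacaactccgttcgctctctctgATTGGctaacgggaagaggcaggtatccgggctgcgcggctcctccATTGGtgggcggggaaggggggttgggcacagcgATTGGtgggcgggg
Nr1d1: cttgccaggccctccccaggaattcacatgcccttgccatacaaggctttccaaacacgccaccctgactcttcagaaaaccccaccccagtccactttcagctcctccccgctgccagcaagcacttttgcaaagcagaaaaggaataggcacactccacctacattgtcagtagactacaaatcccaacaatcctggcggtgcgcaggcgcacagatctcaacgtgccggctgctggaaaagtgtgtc
Nr1d2: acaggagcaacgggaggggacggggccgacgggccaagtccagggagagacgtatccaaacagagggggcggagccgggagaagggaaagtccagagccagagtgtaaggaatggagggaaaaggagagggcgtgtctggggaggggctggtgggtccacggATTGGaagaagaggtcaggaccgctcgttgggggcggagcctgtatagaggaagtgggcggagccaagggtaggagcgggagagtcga
The 250 bases of Arntl hold 7 such matches, those of Nr1d2 1 and those of Nr1d1 0. With the 50 bases after the start the Arntl window holds 8, and it is the only 1 of the 32851 windows with at least 8 (0.00304%), while 37.4% hold at least 1. The motif was added after these sequences were seen and the cut-off of 8 is the count of this window itself, so the share is no test of rarity. These matches are letters in a window and not evidence of binding.

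Total counts lay between 10310447 and 21205032 in 17 libraries. Replicate 2 of Lipase Inh. + SR-3420 had only 4263755, and Lars2 took 18.3% of them against at most 0.121% elsewhere. All 7 adipocyte markers stood at 1 CPM or more in every group, with summed levels from 10438 to 15980 CPM. Of the brown adipocyte markers 6 of 7 did, and their summed levels ran from 178 to 238 CPM in both vehicle groups, from 300 to 331 with SR-3420, from 1610 to 1725 with ISO, from 1026 to 1261 in Lipase Inh. + ISO and from 248 to 277 in Lipase Inh. + SR-3420. All groups thus held the adipocyte markers and 6 of the 7 brown ones, the exception being Dio2 at 0 to 6 counts per library. Ucp1 averaged 2.69 CPM with Vehicle, 2.37 in Lipase Inh. + Vehicle and 2.98 in Lipase Inh. + SR-3420. It averaged 11.9 CPM with SR-3420, 364 with ISO and 675 in Lipase Inh. + ISO. With ISO, Ppargc1a alone averaged 1080 CPM, so the brown sums also move with the stimulus. Preadipocyte and fibroblast markers summed to between 82.8 and 135 CPM, macrophage markers to between 1.96 and 6.3, endothelial markers to at most 0.524 and muscle markers to between 0.809 and 2.55, with Ptprc, Emr1, Cdh5, Kdr, Myog and Myh4 at 3 counts or fewer in all libraries. In such bulk samples, fewer cells of a type and less RNA per cell cannot be told apart.

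Levels per sample are CPM (a gene's counts relative to its library's TMM-scaled total, for replicates 1, 2 and 3), and differences are log2 fold changes ± SE from a single edgeR quasi-likelihood fit over all 18 samples. A gene passed the test at an adjusted p of at most 0.05 over all 12156 genes. The stricter thresholds of the study also ask for a change of 1 or more on the log2 scale in either direction.

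Arntl (NM_001243048, mm9 chr7:120350979-120457640, plus strand) rose with both stimuli and rose most when ISO met lipase inhibitors. Its level was 13.5, 16.7 and 14.1 CPM with Vehicle, 29.4, 33.1 and 26.7 with ISO, and 26.9, 33.0 and 26.6 with SR-3420. All stimulated samples lay above all Vehicle samples, and ISO and SR-3420 overlapped. With inhibitors the levels were 17.4, 20.1 and 16.6 CPM for Lipase Inh. + Vehicle, 49.2, 55.7 and 47.7 for Lipase Inh. + ISO, and 18.9, 22.1 and 17.3 for Lipase Inh. + SR-3420. Every Lipase Inh. + ISO sample stood above every sample of the other 5 groups, while Lipase Inh. + SR-3420 overlapped Lipase Inh. + Vehicle. The log2 fold change was 1.02 ± 0.12 with ISO (edgeR adjusted p 4.31e-07) and 0.96 ± 0.12 with SR-3420 (9.97e-07). With inhibitors it was 1.50 ± 0.12 for ISO (3.70e-10) and 0.07 ± 0.13 for SR-3420 (0.84). The inhibitors alone gave 0.29 ± 0.12 (0.383). Thus the step with ISO was larger with inhibitors by 0.48 ± 0.17 (interaction, adjusted p 0.0331) and that with SR-3420 smaller (−0.89 ± 0.18, 6.82e-04). The ISO interaction of Arntl did not pass without ISO replicate 1 (adjusted p 0.0644) or 3 (0.0797), without Lipase Inh. + Vehicle replicate 1 (0.0706) or 3 (0.0886), without Vehicle replicate 2 (0.109) or without Lipase Inh. + ISO replicate 2 (0.0861). Its size in these fits was 0.38 to 0.47.

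Clock (NM_001289826, chr5:76638893-76733817, minus strand), the partner of Arntl, had the highest counts of the 6 genes and rose with either stimulus. With Vehicle it stood at 192, 232 and 240 CPM, with ISO at 379, 366 and 395, and with SR-3420 at 424, 410 and 419. The 3 groups did not overlap, SR-3420 being the highest of all 6 groups. With inhibitors the values were 233, 229 and 242 CPM for Lipase Inh. + Vehicle, 277, 264 and 254 for Lipase Inh. + ISO, and 280, 312 and 323 for Lipase Inh. + SR-3420. These groups did not overlap each other either, but lay below ISO and SR-3420 without inhibitors. The log2 fold change was 0.78 ± 0.07 with ISO (adjusted p 1.39e-08) and 0.92 ± 0.07 with SR-3420 (1.80e-09). With inhibitors it was 0.18 ± 0.07 (0.0476) and 0.38 ± 0.07 (0.00366). Both steps were smaller with inhibitors, by −0.60 ± 0.10 for ISO (1.25e-04) and −0.54 ± 0.11 for SR-3420 (5.92e-04). The call of Clock in Lipase Inh. + ISO was a narrow one: on total counts alone the value was −0.05 (0.653). It was also lost without Lipase Inh. + Vehicle replicate 1 (0.0957), 2 (0.11) or 3 (0.0524), or without Lipase Inh. + ISO replicate 1 (0.15) or 2 (0.0811). On total counts the Lipase Inh. + SR-3420 value was 0.26 (0.114), while that call held in all 6 fits that each left out a library (largest adjusted p 0.0253).

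Npas2 (NM_008719, chr1:39251117-39420085, plus strand), the paralogue that can stand in for Clock, was the least counted of the 6 and passed the test against vehicle with SR-3420 only. It stood at 9.16, 10.2 and 10.1 CPM with Vehicle, 9.37, 12.9 and 10.6 with ISO, and 14.6, 17.7 and 14.6 with SR-3420. The SR-3420 samples lay above all other samples, and ISO overlapped Vehicle. With inhibitors the levels were 9.19, 10.2 and 9.71 CPM for Lipase Inh. + Vehicle, 9.54, 8.70 and 8.57 for Lipase Inh. + ISO, and 12.4, 12.3 and 10.8 for Lipase Inh. + SR-3420. The last of these did not overlap the first. The log2 fold change was 0.67 ± 0.13 with SR-3420 (adjusted p 1.48e-04), 0.16 ± 0.13 with ISO (0.334), −0.12 ± 0.13 for ISO with inhibitors (0.447) and 0.27 ± 0.13 for SR-3420 with inhibitors (0.338). The ISO value on total counts alone turned to −0.15 (0.362), and ISO with inhibitors passed at −0.35 (0.0375). Neither interaction of Npas2 passed (−0.28 ± 0.19, 0.275, for ISO and −0.39 ± 0.18, 0.119, for SR-3420).

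**Figure D1:**
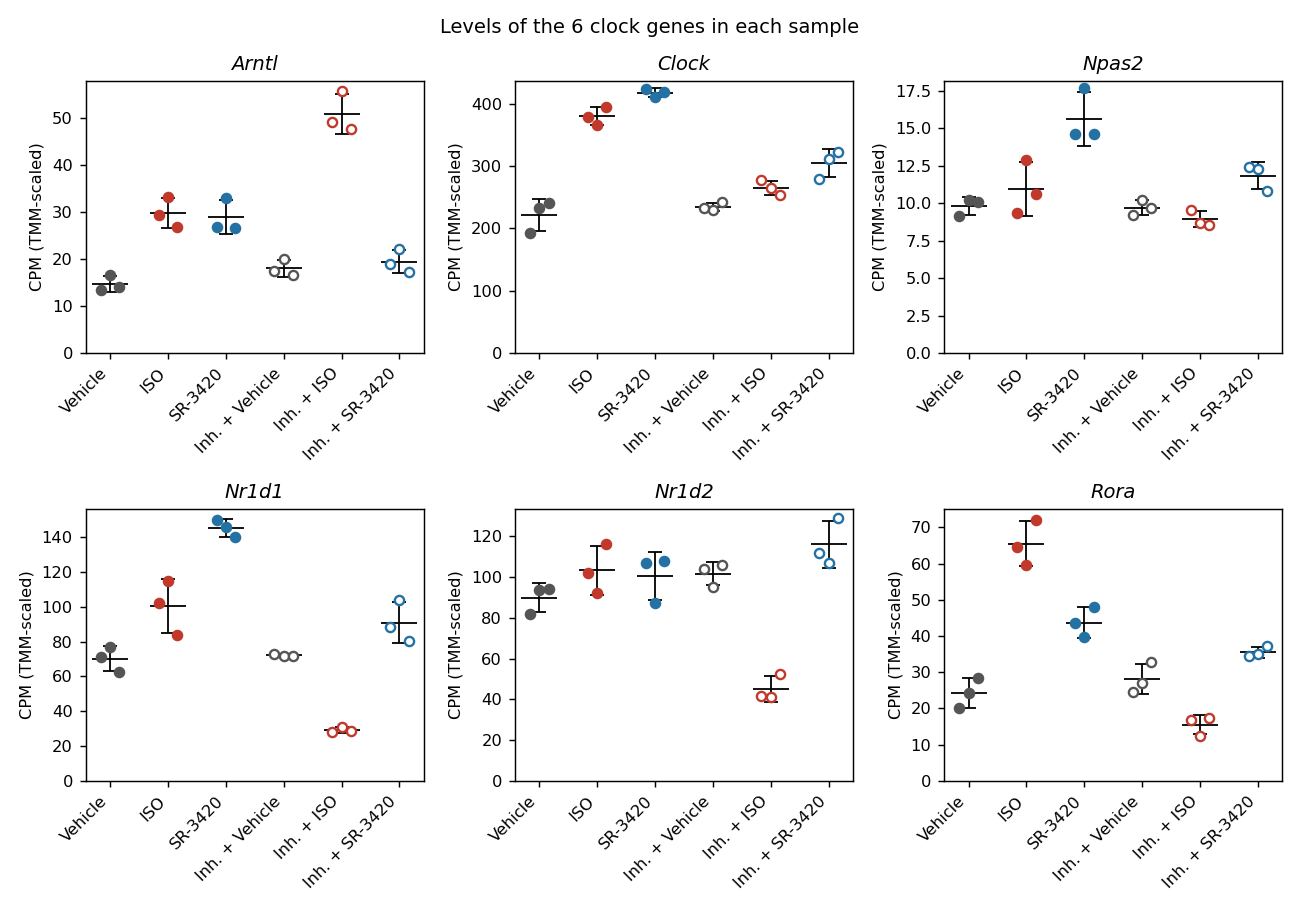
CPM of TMM-scaled libraries on the vertical axis, from 0, for each gene in the 6 groups; points are single samples (filled without, open with lipase inhibitors), horizontal marks the mean and bars the SD of 3 samples. Arntl was highest in Lipase Inh. + ISO (50.9 CPM on average), where Nr1d1 (29.2), Nr1d2 (44.9) and Rora (15.6) were lowest.

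Nr1d1 (NM_145434, chr11:98629246-98636691, minus strand), which encodes REV-ERBα, moved in opposite directions with ISO depending on the inhibitors. Its levels were 71.2, 76.8 and 62.4 CPM with Vehicle, 102, 115 and 84.0 with ISO, and 150, 146 and 140 with SR-3420. The groups did not overlap, and SR-3420 was the highest. With inhibitors they were 73.0, 71.8 and 71.9 CPM for Lipase Inh. + Vehicle, 28.2, 30.9 and 28.4 for Lipase Inh. + ISO, and 88.5, 104 and 80.5 for Lipase Inh. + SR-3420. The 3 Lipase Inh. + ISO samples were the lowest of all 18. The log2 fold change was 0.52 ± 0.10 with ISO (adjusted p 1.54e-04) and 1.05 ± 0.10 with SR-3420 (1.52e-08), against −1.31 ± 0.11 for ISO with inhibitors (6.59e-10) and 0.31 ± 0.10 for SR-3420 with inhibitors (0.0922). The rise with ISO did not pass on total counts alone (0.21, 0.0677). With the replicate number as a block in the fit, SR-3420 with inhibitors passed (0.31, adjusted p 0.0109). The interaction was −1.83 ± 0.14 for ISO (2.96e-09) and −0.74 ± 0.14 for SR-3420 (4.72e-04).

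The 3′ end of Nr1d1 lies under the end of Thra, a thyroid hormone receptor gene on the opposite strand. In the GENCODE annotation of mm9 the transcript Thra-001 covers the last 1075 bases of Nr1d1 (98629246 to 98630320), whereas the counted model of Thra ends 2820 bases before it. Whether strand was used in the counting is not stated, and without strand such reads cannot be told apart. Thra itself fell with ISO (−1.12 ± 0.10, adjusted p 5.19e-09), with SR-3420 (−1.01 ± 0.10, 2.30e-08) and with ISO and inhibitors (−1.43 ± 0.10, 7.25e-11). Without inhibitors its direction was thus opposite to that of Nr1d1, and with ISO and inhibitors it was the same. Its ISO interaction did not pass (−0.31 ± 0.14, 0.0948), and its SR-3420 interaction was above 0 (0.72 ± 0.14, 5.31e-04), opposite in sign to that of Nr1d1. The part of such reads in the values of Nr1d1 was not tested. The annotation also places Gm15511 antisense within Rora (15359 bases), a further antisense transcript within Npas2 (283 bases), and transcripts on the same strand within Npas2 (555 bases) and Rora (436 bases).

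Nr1d2 (NM_011584, chr14:19036570-19071620, minus strand), which encodes REV-ERBβ, did not pass with either stimulus alone and fell with ISO in the presence of inhibitors. It stood at 81.8, 93.7 and 94.1 CPM with Vehicle, 102, 92.0 and 116 with ISO, and 108, 87.1 and 108 with SR-3420, with overlap among all of these groups. The values were 104, 95.1 and 106 CPM for Lipase Inh. + Vehicle, 41.4, 41.0 and 52.3 for Lipase Inh. + ISO, and 112, 107 and 129 for Lipase Inh. + SR-3420. Again the 3 Lipase Inh. + ISO samples were the lowest of all 18. The log2 fold change was 0.20 ± 0.11 with ISO (adjusted p 0.117), 0.17 ± 0.11 with SR-3420 (0.186), −1.17 ± 0.11 for ISO with inhibitors (7.19e-09) and 0.20 ± 0.11 for SR-3420 with inhibitors (0.397). The ISO value on total counts alone was −0.10 (0.471), and with the replicate number as a block in the fit it passed at 0.20 (0.03). A pass was reached without ISO replicate 2 (0.28, 0.0487) and, for SR-3420, without SR-3420 replicate 2 (0.27, 0.0479). The interaction was −1.37 ± 0.15 for ISO (4.11e-07) and 0.03 ± 0.15 for SR-3420 (0.922).

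Rora (NM_013646, chr9:68501593-69236053, plus strand), which encodes the activating receptor RORα, showed the largest rise with ISO of the 6 genes and also turned to a fall with inhibitors. Its levels were 20.0, 24.3 and 28.5 CPM with Vehicle, 64.7, 59.7 and 72.2 with ISO, and 43.6, 39.6 and 48.0 with SR-3420. These groups did not overlap, and ISO was the highest of all 6. With inhibitors the levels were 24.6, 26.9 and 32.8 CPM for Lipase Inh. + Vehicle, 16.7, 12.5 and 17.4 for Lipase Inh. + ISO, and 34.4, 34.9 and 37.2 for Lipase Inh. + SR-3420. The Lipase Inh. + ISO samples lay below every other sample. The log2 fold change was 1.44 ± 0.13 with ISO (adjusted p 6.27e-09) and 0.86 ± 0.13 with SR-3420 (1.15e-05), against −0.84 ± 0.14 for ISO with inhibitors (2.13e-05) and 0.34 ± 0.13 for SR-3420 with inhibitors (0.199). The ISO interaction of Rora, −2.28 ± 0.19 (6.44e-09), was the largest of the 6. Its SR-3420 interaction was −0.52 ± 0.19 (0.0413) and did not pass on total counts alone (−0.46, 0.0888). Nor did it pass without Vehicle replicate 1 (0.121) or 2 (0.0606), SR-3420 replicate 1 (0.0671) or 3 (0.102), Lipase Inh. + SR-3420 replicate 1 (0.086) or 2 (0.0641), or Lipase Inh. + Vehicle replicate 3 (0.135). The rise of Rora for SR-3420 with inhibitors passed with the replicate number as a block in the fit (0.33, adjusted p 0.0435).

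**Figure D2:**
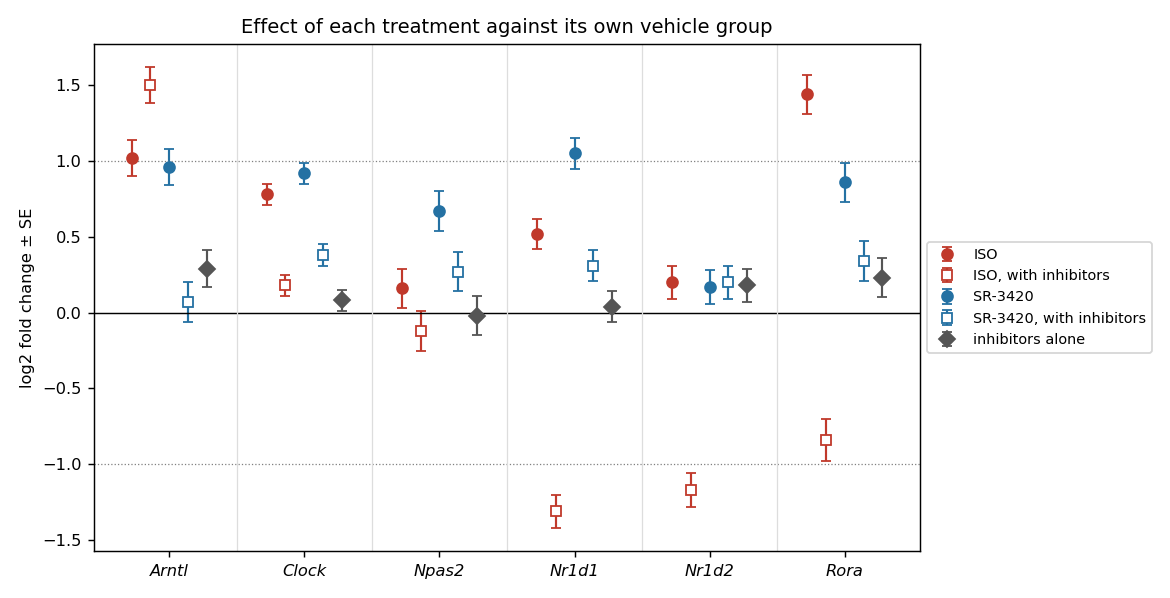
Log2 fold change ± SE (vertical axis) of each gene for ISO and SR-3420 against Vehicle (filled), for the same stimuli against Lipase Inh. + Vehicle (open) and for the inhibitors alone (diamonds), with dotted lines at 1 and −1. Nr1d1 and Rora were above 0 with ISO and below 0 with ISO and inhibitors, while Arntl was above 1 in both.

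Read by comparison, ISO raised 4 of the 6 genes and lowered 0, where 26.8% of all genes tested were higher and 25% lower. On total counts alone the median gene of this comparison moved by −0.31 on the log2 scale and the share of calls that were higher was 19.9% instead of 51.7%, so the changes given are relative to that shift. Arntl and Rora also passed the stricter thresholds, as did 9.11% of all genes. SR-3420 raised 5 and lowered 0 (background 26% and 25.4%; on total counts the median gene moved by −0.16 and 30.8% of calls were higher instead of 50.6%), and Nr1d1 passed the stricter thresholds, as did 6.33% of all genes. The median log2 fold change of the 6 was 0.65 with ISO and 0.89 with SR-3420, beside −0.02 over all genes in both. Both comparisons use the same Vehicle samples.

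The inhibitors alone called 0 of the 6 by edgeR, where 0.485% of genes were higher and 0.428% lower. By edgeR's unadjusted p, 1 of the 6 were under 0.05, and DESeq2 called 0 of the 5 to which it gave an adjusted p. Shares of all genes by these measures are not given here.

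With inhibitors, ISO raised 2 (Arntl and, narrowly, Clock) and lowered 3 (Nr1d1, Nr1d2, Rora), where 29.4% of all genes were higher and 28.3% lower. On total counts the median gene moved by −0.23, 27.8% of calls were higher instead of 51%, and Clock turned to −0.05. Arntl, Nr1d1 and Nr1d2 passed the stricter thresholds, as did 13.1% of all genes. The median of the 6 was −0.48, beside −0.01 over all genes. In the main fit Lipase Inh. + SR-3420 raised Clock alone among the 6, where 2.99% of genes were higher and 1.36% lower. There the median gene moved by −0.10 on total counts, with 33.1% of calls higher instead of 68.8%, and 0 of the 6 passed. The median of the 6 was 0.29, beside 0.00. With the replicate number as a block in the fit, Nr1d1 (0.31, adjusted p 0.0109) and Rora (0.33, 0.0435) passed here beside Clock.

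Set directly against each other, ISO and SR-3420 differed in 3 of the 6 genes. Rora was higher with ISO by 0.58 ± 0.12 (adjusted p 0.00133), while Npas2 (−0.51 ± 0.13, 0.00411) and Nr1d1 (−0.53 ± 0.10, 2.82e-04) were higher with SR-3420. Over all genes 15.8% were higher with ISO and 13.9% lower. Arntl (0.05 ± 0.11, 0.771), Clock (−0.14 ± 0.07, 0.169) and Nr1d2 (0.03 ± 0.11, 0.854) did not pass. On total counts, where the median gene moved by −0.15 and 20.3% of calls were higher instead of 53.1%, Arntl turned to −0.10 and Nr1d2 to −0.11, and Clock passed at −0.28 (0.0163).

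With inhibitors the stimuli differed in all 6. Arntl was higher in Lipase Inh. + ISO than in Lipase Inh. + SR-3420 by 1.42 ± 0.12 (1.95e-09), and the other 5 were lower, where 28.6% of all genes were higher and 28.3% lower. The differences were −1.62 ± 0.11 for Nr1d1 (3.23e-11), −1.37 ± 0.11 for Nr1d2 (8.59e-10), −1.18 ± 0.14 for Rora (3.26e-07), −0.40 ± 0.14 for Npas2 (0.0177) and −0.20 ± 0.07 for Clock (0.0255). The first 3 of these and Arntl passed the stricter thresholds, as did 13.2% of all genes. Npas2 did not pass without Lipase Inh. + SR-3420 replicate 1 (0.0785) or Lipase Inh. + ISO replicate 3 (0.0645). Clock did not pass without Lipase Inh. + ISO replicate 2 (0.0556) or 3 (0.101) or without Lipase Inh. + SR-3420 replicate 2 (0.0696) or 3 (0.126). On total counts 37% of all calls were higher instead of 50.3%, and the median gene moved by −0.13.

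The test of the inhibitor's effect on each stimulus, the difference between the effect with and without inhibitors, was higher for 1 gene (Arntl) and lower for 4 with ISO. Over all genes 14.9% were higher and 16.6% lower. Nr1d1, Nr1d2 and Rora passed the stricter thresholds, as did 6.89% of all genes. With SR-3420 it was higher for 0 and lower for 4 (Arntl, Clock, Nr1d1, Rora), where 12.5% of genes were higher and 14.8% lower. The medians of the 6 were −0.99 for ISO and −0.53 for SR-3420, beside 0.01 over all genes in both. On total counts the share of calls that were higher was 58.6% instead of 47.3% for ISO, and 55.8% instead of 45.9% for SR-3420.

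Levels can be set against each other between genes only per length, here as RPKM (CPM divided by the counted length in kilobases). With Vehicle the RPKM level was 25.4 ± 2.63 for Nr1d1, 22.7 ± 2.65 for Clock, 19.4 ± 1.51 for Nr1d2, 5.64 ± 0.653 for Arntl, 2.35 ± 0.14 for Npas2 and 2.23 ± 0.392 for Rora (SD, n = 3). In Lipase Inh. + ISO the RPKM level of Arntl was 19.5 ± 1.63, above those of Nr1d1 (10.5 ± 0.556) and Nr1d2 (9.68 ± 1.38). In the other 5 groups Arntl lay below both.

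Ratios within a library do not depend on how libraries are scaled. The log2 ratio of Nr1d1 to Arntl, per length, was 2.32, 2.12 and 2.06 with Vehicle, 1.71, 1.71 and 1.57 with ISO, and 2.40, 2.07 and 2.32 with SR-3420. It was 1.99, 1.76 and 2.03 for Lipase Inh. + Vehicle, −0.88, −0.93 and −0.83 for Lipase Inh. + ISO, and 2.14, 2.15 and 2.14 for Lipase Inh. + SR-3420. Nr1d1 RNA was therefore 3.8 times that of Arntl in Lipase Inh. + Vehicle, and Arntl RNA 1.84 times that of Nr1d1 in Lipase Inh. + ISO, the only group with a ratio below 0. With 3 samples against 3, an exact permutation test cannot go below 0.1, so no test is given.

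The log2 ratio of Arntl to its partner Clock was −2.01 ± 0.16 with Vehicle (SD, n = 3) and −0.49 ± 0.13 in Lipase Inh. + ISO, and the other 4 groups lay between −2.08 and −1.78 on average. No sample of those 5 groups reached the range of Lipase Inh. + ISO. The log2 ratio of the 2 REV-ERB genes, Nr1d1 to Nr1d2, was highest with SR-3420 (1.28 ± 0.19 against 0.39 ± 0.21 with Vehicle), where Nr1d1 alone of the pair rose, and was 0.13 ± 0.24 in Lipase Inh. + ISO, where both fell. That of Npas2 to Clock went from −3.27 ± 0.09 with Vehicle to −3.91 ± 0.27 with ISO. That of Rora to Nr1d1, the activating against the repressing receptor, was −3.52 ± 0.37 with Vehicle, −3.71 ± 0.17 with SR-3420 and −2.58 ± 0.36 with ISO. The ISO samples did not overlap Vehicle or SR-3420. With inhibitors it was −3.35 ± 0.22 for Lipase Inh. + Vehicle, −2.89 ± 0.33 for Lipase Inh. + ISO and −3.32 ± 0.23 for Lipase Inh. + SR-3420. The Lipase Inh. + ISO samples overlapped both ISO and Lipase Inh. + Vehicle.

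**Figure D3:**
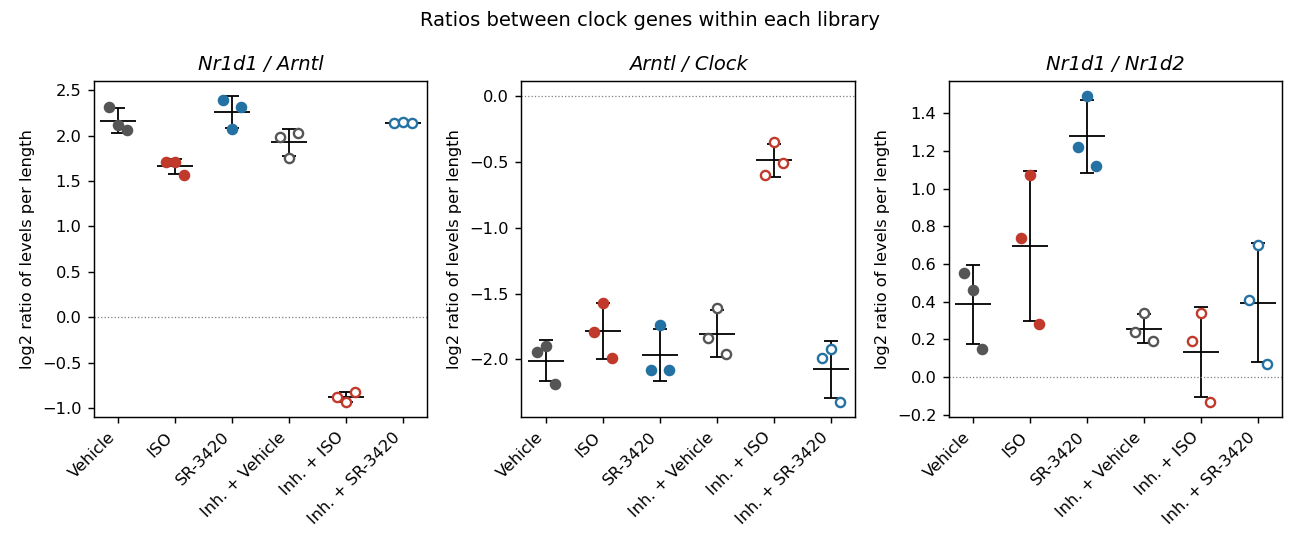
Log2 ratio of length-scaled levels (vertical axis) for 3 pairs of genes in each sample of the 6 groups, with the mean and SD of 3 samples; the dotted line marks equal levels. Nr1d1 to Arntl lay between 1.57 and 2.40 in 5 groups and between −0.93 and −0.83 in Lipase Inh. + ISO.

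Of 20 further clock genes, 19 could be tested, Fbxl21 having too few counts (0 to 9 per library). They include Per, Cry, D-box and kinase genes. With ISO 10 were higher and 6 lower, with SR-3420 9 and 5, with the inhibitors alone 0 and 0 (4 at an unadjusted p under 0.05, and 2 called by DESeq2), with ISO and inhibitors 6 and 10, and with SR-3420 and inhibitors 3 and 1. Shares of all genes at an unadjusted p or by DESeq2 are not given here, so the 4 and the 2 are not read as an effect. The interaction was higher for 2 and lower for 10 with ISO, and higher for 4 and lower for 8 with SR-3420. Their median was 0.23 on the log2 scale with ISO and −0.25 with ISO and inhibitors, beside −0.02 and −0.01 over all genes. With total counts as the scale, ISO raised 8 and lowered 8, SR-3420 raised 8 and lowered 7, and ISO with inhibitors raised 6 and lowered 11, and 1 called gene turned, Csnk1d with ISO. Of the calls over all genes on that scale, 19.9% were higher for ISO, 30.8% for SR-3420 and 27.8% for ISO with inhibitors. Over all genes in the main fit, the shares higher and lower were 26.8% and 25% for ISO, 26% and 25.4% for SR-3420, 29.4% and 28.3% for ISO with inhibitors, and 2.99% and 1.36% for SR-3420 with inhibitors. For the interactions they were 14.9% and 16.6% (ISO) and 12.5% and 14.8% (SR-3420). Several of the 19 are known targets of the 6 transcription factors.

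Ciart, Bhlhe40 and Cry1, repressors of the loop, rose with both stimuli, as did Per1 and Per2. Ciart, which blocks CLOCK and BMAL1, rose by 1.58 ± 0.17 with ISO (adjusted p 5.64e-08) and 1.49 ± 0.16 with SR-3420 (1.51e-07). Bhlhe40, which competes for E-boxes, rose by 1.24 ± 0.08 (2.02e-11) and 1.13 ± 0.08 (1.48e-10), and Cry1 by 1.00 ± 0.09 (4.81e-09) and 0.80 ± 0.09 (1.87e-07). Ciart, Bhlhe40 and Cry1 also rose with ISO and inhibitors (0.99 ± 0.17, 0.96 ± 0.08 and 0.69 ± 0.09). Their ISO interactions did not pass (Ciart −0.59 ± 0.24, 0.0668; Bhlhe40 −0.28 ± 0.11, 0.0537; Cry1 −0.31 ± 0.13, 0.0645). Those with SR-3420 did, at −0.77 ± 0.25 for Ciart (0.0246, but −0.69, 0.0657, on total counts), −0.68 ± 0.11 for Bhlhe40 (8.28e-05) and −0.67 ± 0.13 for Cry1 (4.70e-04).

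The Per genes differed among themselves. Per1 rose with ISO (0.90 ± 0.09, adjusted p 1.83e-08) and by 0.27 ± 0.09 with SR-3420 (0.0146), a call lost on total counts alone (0.11, 0.414). With ISO and inhibitors it was at 0.19 ± 0.09 (0.0739), and at −0.03 on total counts. Per2 rose with ISO (0.84 ± 0.15, 7.78e-05) and SR-3420 (1.14 ± 0.15, 1.72e-06) but fell with ISO and inhibitors (−0.50 ± 0.16, 0.00935), and its ISO interaction was −1.34 ± 0.22 (5.72e-05). These are the directions seen for Nr1d1 and Rora, although the Per2 levels of Lipase Inh. + ISO and Lipase Inh. + Vehicle overlapped. Per3 fell with ISO (−1.51 ± 0.17, 1.31e-07) and further with ISO and inhibitors (−2.58 ± 0.18, 4.64e-11). It also fell with SR-3420 (−0.94 ± 0.16, 4.77e-05), but SR-3420 with inhibitors did not pass (−0.10 ± 0.16, 0.814). The SR-3420 interaction of Per3 was 0.84 ± 0.22 (0.00769).

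Output genes of the clock include factors that bind D-boxes. Nfil3, the repressor among them and a known REV-ERB target, rose with ISO (1.68 ± 0.08, adjusted p 4.41e-13), SR-3420 (1.31 ± 0.08, 3.22e-11) and ISO with inhibitors (1.43 ± 0.08, 3.01e-12). The activators Dbp (−1.25 ± 0.15, 4.18e-07), Tef (−1.27 ± 0.10, 3.13e-10) and Hlf (−1.64 ± 0.22, 1.15e-06) fell with ISO and inhibitors. Without inhibitors Dbp and Tef had also fallen, by 0.60 and 0.82 with ISO (0.00121 and 3.02e-07) and by 0.55 and 0.58 with SR-3420 (0.00238 and 3.01e-05), while Hlf did not pass with ISO (−0.43 ± 0.21, 0.0907, but −0.74, 0.00515, on total counts) or SR-3420 (−0.24 ± 0.20, 0.331). With ISO and inhibitors the ROR gene Rorb rose by 1.10 ± 0.14 (5.99e-07) and the PER kinase gene Csnk1d by 1.15 ± 0.07 (5.42e-12). Without inhibitors Rorb also rose with ISO (0.72 ± 0.14, 2.17e-04) and SR-3420 (0.61 ± 0.14, 0.001). Its ISO interaction did not pass (0.38 ± 0.20, 0.15). Csnk1d was at 0.23 ± 0.07 with ISO alone (0.00672, but −0.07, 0.475, on total counts), and its ISO interaction passed (0.92 ± 0.10, 2.11e-07).

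**Figure D4:**
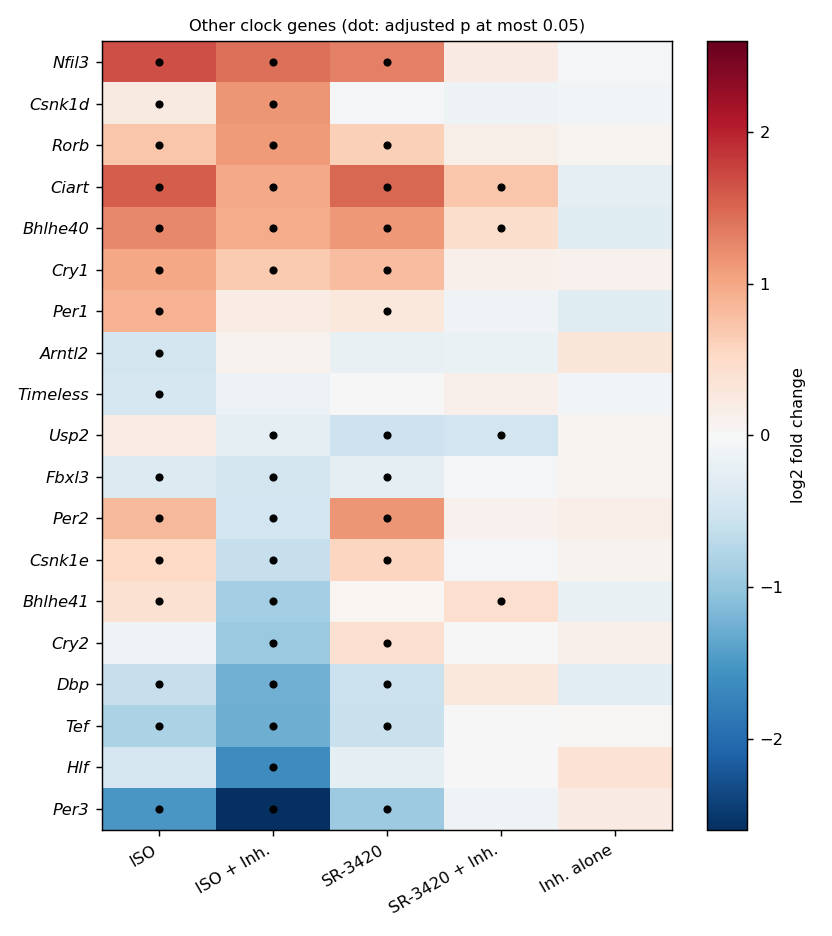
Log2 fold change (colour scale) of the 19 further clock genes tested, in rows ordered by their change with ISO and inhibitors, for 5 comparisons in columns; dots mark an adjusted p of at most 0.05. Nfil3 is at the top (1.43) and Per3 at the bottom (−2.58) of the second column, and the column for the inhibitors alone has no dot.

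Among 7 genes for cofactors of the REV-ERB and ROR proteins, ISO raised 5 and lowered 0, SR-3420 raised 5 and lowered 1, ISO with inhibitors raised 2 and lowered 2, and SR-3420 with inhibitors raised 3 and lowered 0. The shares over all genes are those given for the clock genes, and the median log2 fold change of the 7 was 0.45, 0.43, 0.05 and 0.25 in these comparisons, beside −0.02, −0.02, −0.01 and 0.00 over all genes. By edgeR the inhibitors alone called 0, with 6 at an unadjusted p under 0.05 and 1 called by DESeq2. Shares of all genes at an unadjusted p or by DESeq2 are not given here, so the 6 and the 1 are not read as an effect. With total counts as the scale, ISO raised 2 and lowered 2, SR-3420 raised 4 and lowered 1, and ISO with inhibitors raised 2 and lowered 3, and 0 of the called genes turned. Of the calls over all genes on that scale, 19.9%, 30.8% and 27.8% were higher in these comparisons. Ppargc1a, a coactivator of RORα and of many receptors of brown fat, rose by 3.83 ± 0.09 with ISO (adjusted p 9.94e-19), 1.01 ± 0.08 with SR-3420 (2.52e-09) and 1.85 ± 0.08 with ISO and inhibitors (5.14e-14). Nrip1, a nuclear receptor corepressor, rose by 1.36 ± 0.07 with SR-3420 (2.80e-12) and fell with ISO and inhibitors (−1.44 ± 0.07, 4.82e-13). With ISO alone it rose by 0.42 ± 0.07 (4.61e-05, but 0.12, 0.243, on total counts). Its ISO interaction was −1.86 ± 0.10 (1.98e-11). Ncor1, the corepressor through which REV-ERB proteins act, rose with ISO (0.47 ± 0.08, 3.37e-05, but 0.16, 0.126, on total counts) and SR-3420 (0.66 ± 0.08, 4.80e-07). With ISO and inhibitors Ncor1 fell (−0.20 ± 0.08, 0.0364), and its ISO interaction was −0.67 ± 0.11 (7.80e-05). With SR-3420 and inhibitors Ncor1 (0.32 ± 0.08, 0.0216, but 0.21, 0.248, on total counts) and Nrip1 (0.58 ± 0.07, 3.23e-05) rose. So did Ppargc1a, by 0.67 ± 0.08 (3.23e-05). The histone deacetylase gene Hdac3 was at −0.14 ± 0.07 with ISO (0.115, but −0.45, 4.92e-05, on total counts) and fell with SR-3420 (−0.33 ± 0.07, 7.89e-04).

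For each of the 6 genes, up to 3 of the genes most like it are given, taken from 9405 genes by Pearson's r of log2 CPM over the 18 samples. These samples share groups, so r mostly describes the group pattern, and no p is given. Arntl was much like Erc1 (0.97) and Pspc1 (0.97). Clock was most like Lats1 (0.993), Zscan26 (0.985) and Rsbn1 (0.979). Npas2 had the weakest likeness, to Elp6 (0.906), Itga5 (0.899) and Mbd6 (0.899). Nr1d1 was most like Eif4b (0.983), Cnksr3 (0.981) and Arhgef2 (0.981), Nr1d2 most like Fnip2 (0.982), Fam214a (0.972) and Cped1 (0.969), and Rora most like Foxo3 (0.975), Raph1 (0.968) and Sowahc (0.966). Likeness does not speak of size: of the genes most like Nr1d1, Eif4b was at 0.29 ± 0.06 with SR-3420 and −0.29 ± 0.06 with ISO and inhibitors, and Cnksr3 at 1.47 ± 0.09 and −1.39 ± 0.11. By Spearman's rank correlation, 1 of the 3 was shared for Clock, Npas2, Nr1d2 and Rora and 0 for Nr1d1, so the names depend on the measure.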

How the data were processed

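Per the labels and the methods of the study, the authors made TruSeq libraries, aligned reads to mm9 with STAR 2.4.2a, kept 1 read per position and length in HOMER and counted per RefSeq gene with iRNA-seq. Whether strand was used is not given. The deposited values are whole-number counts, not normalised, for 20295 genes and 18 samples, with 0 columns of other samples. Starts were changed to count from 1.

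In R 4.3.3, edgeR 4.0.16 kept 12156 genes (filterByExpr, minimum count 10, minimum total count 15), scaled libraries by TMM and fitted 1 quasi-likelihood model with a mean per group. Benjamini-Hochberg adjustment ran over these genes in each of 9 comparisons. Levels are given per sample, or as mean ± SD. The code was checked on simulated counts. DESeq2 1.42.0, other scalings and filters, the replicate block and leaving out each library were alternatives.

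Named were the 6 genes, the listed clock and cofactor genes past both thresholds in any of the first 5 comparisons, Per1, Per2, Cry1, Thra, overlapping genes, and the 3 most alike per gene (average log2 CPM of at least 3, prior count 2). Ncor1, Hdac3 and Fbxl21 were named after their values were seen. Of the genes these rules name or list, 2 are not reported here and 1 of them was left out of the counts over the list. The members and lists were chosen with earlier results of these data known.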

Additional observations from a re-analysis of the deposited data

Results flagged for a closer look

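For 9 gene and stimulus pairs, the test of the difference between the effect with and without lipase inhibitors passed, that is, the same stimulus moved the gene differently in the 2 settings (edgeR, adjusted over all genes). With ISO the difference was 0.48 for Arntl, −0.60 for Clock, −1.83 for Nr1d1, −1.37 for Nr1d2 and −2.28 for Rora. With SR-3420 it was −0.89 for Arntl, −0.54 for Clock, −0.74 for Nr1d1 and −0.52 for Rora. Arntl is thus the only one of the 6 with differences of opposite sign for the 2 stimuli that both passed, although its value for ISO was lost in 6 of 12 fits that each left out a library (largest adjusted p 0.109). That of Rora for SR-3420 was lost in 7 of 12 (0.135).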

How the results depend on the processing

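Of 54 single log2 fold changes (6 genes in 9 comparisons), 33 kept their direction and their side of the threshold under all alternatives run and 21 did not. RLE size factors, the filter at 1 CPM in 3 samples and a fit of only the groups compared changed 0 of 54, and DESeq2 0 of the 53 to which it gave an adjusted p (Npas2 with the inhibitors alone got none). Without a filter, Clock in Lipase Inh. + ISO against Lipase Inh. + SR-3420 stood at −0.18 (adjusted p 0.0533). On total counts alone, 6 values turned: Npas2 with ISO (−0.15), Nr1d2 with ISO (−0.10), Clock in Lipase Inh. + ISO (−0.05), Arntl in Lipase Inh. + SR-3420 (−0.02), and Arntl (−0.10) and Nr1d2 (−0.11) in ISO against SR-3420. The number of the 6 genes past the test in Lipase Inh. + SR-3420 went from 1 to 0 on total counts. Replicate 2 of that group, where Lars2 took 18.3% of counts, had a TMM factor of 0.881 against 1.08 and 1.06 for replicates 1 and 3. The cause of the change was not tested. Total counts also moved 12 of 36 group levels by over 1 SD, while RLE factors moved 0.

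Single libraries left out gave values on both sides of 0 for Clock (−0.01 to 0.14), Npas2 (−0.07 to 0.01) and Nr1d1 (−0.04 to 0.11) with the inhibitors alone, for Arntl (−0.03 to 0.16) and Nr1d2 (−0.06 to 0.11) in ISO against SR-3420, and for Nr1d2 in the SR-3420 interaction (−0.07 to 0.09). None of these had passed. Replicate numbers were not taken to pair the samples in the main fit, and what samples of the same number share was not tested. Samples with the same number deviated from their groups with a correlation of −0.0118 on average for number 1, 0.1503 for number 2 and 0.1903 for number 3. Over 0.1 were 1 of 15 pairs for number 1, 12 of 15 for number 2 and 15 of 15 for number 3. Of 18 samples, 12 correlated best with their own number, and the main fit takes no account of this. With the replicate number as a block, 3 of the 6 genes passed in Lipase Inh. + SR-3420, with Nr1d1 (0.31, adjusted p 0.0109) and Rora (0.33, 0.0435) beside Clock, and Nr1d2 passed with ISO (0.20, 0.03). The block changed no other call of the 6 genes. Counts were lowest for Npas2, with 46 to 278 per library.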
